A study of Bos taurus with 15 samples.

Results

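The genes described here are interferon-stimulated genes measured in the biceps brachii of cattle: ISG15, MX1, MX2, RSAD2, IFIT2, IFI44, DHX58, IFI6 and IRF7. Their probes were looked up in the array annotation by gene name, by gene identifier or by the human symbol in the probe description. Of these 9 genes, 7 had a probe, each 1 probe printed as 2 spots, among 21475 probes and 15362 tested genes in all. IFI6 and IRF7 were not analysed here. The array lists DHX58 under its older name LGP2, and RSAD2, IFIT2 and IFI44 under gene identifiers.

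Total RNA was measured on 1-colour Agilent oligonucleotide arrays, with 1 array per animal and 15 animals in all. The treated animals, P25 to P32, were 8 cows given 30 mg of the synthetic glucocorticoid prednisolone per head by mouth every day for 35 days. The 7 control animals were C17, C18 and C20 to C24. All samples were muscle taken at the slaughterhouse, and no label gives the breed or age of the animals. RNA of the prednisolone animals was extracted with TRIzol and a MinElute cleanup, and RNA of the control animals with the RNeasy Mini kit. Prednisolone and extraction method therefore cannot be told apart in any group difference below. The treatment field of the control samples describes growth promoters (Finaplix, and Revalor with or without dexamethasone), although each of these samples carries the label CONTROL. No label says whether any control animal received them. Each label names 1 animal, so errors are spreads between animals.

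Interferons are secreted when a cell senses viral nucleic acid. Type I interferons bind their receptor, activate JAK kinases and transcription factors that include STAT2 and IRF9, and switch on many genes that block viral replication. ISG15 is a ubiquitin-like protein that is linked to other proteins by UBA7, its activating enzyme, and by ligases of the HERC family. MX1 and MX2 are dynamin-like GTPases that trap viral components. RSAD2 (viperin) makes a nucleotide that ends viral RNA synthesis, IFIT2 binds RNA and restrains translation, and DHX58 (LGP2) is an RNA helicase that tunes the RIG-I and MDA5 sensors. IFI44 is a cytoplasmic protein strongly induced by type I interferon. Glucocorticoids are known to restrain many inflammatory and interferon-driven genes, and skeletal muscle fibres can themselves express interferon-stimulated genes.

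Values are log2 intensities, each array shifted to a common 75th percentile, and a difference is prednisolone minus control. A difference in the level of 1 probe can be read between animals, but levels of different probes cannot be compared. The share of spots with a value lay between 72.1% and 87.4%. The scanner flag for a signal well above background was available for the 8 prednisolone arrays. By that flag ISG15, MX1 and RSAD2 were well above background on 8 of 8 arrays, DHX58 on 7, MX2 on 2, IFIT2 on 1 and IFI44 on 0. Of 14 skeletal muscle markers, 12 had a probe and all 12 were well above background on all 8 arrays. In whole muscle, fewer cells of a type and less RNA per cell cannot be told apart.

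The transcript for ISG15 varied widely between animals in both groups. In the prednisolone animals P25 to P32, ISG15 measured 7.25, 9.48, 10.34, 7.72, 8.09, 7.56, 6.52 and 7.57. In the control animals C17, C18, C20, C21, C22, C23 and C24, ISG15 measured 7.64, 10.26, 11.02, 6.99, 8.21, 8.33 and 8.31. The animals P26 and P27 among the treated and C18 and C20 among the controls stood at 9.48 or above, while the other 11 animals lay at 8.33 or below. The groups overlapped almost completely. From the lowest animal, P31, to the highest, C20, the range was 4.51 on the log2 scale, or 22.7-fold. The 2 spots of the ISG15 probe differed by an SD of 0.066, against an SD between animals within groups of 1.34. That spread was larger than that of 96.4% of the 11283 genes with a value on every array, whose median SD was 0.36.

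The mean level of ISG15 was 8.07 ± 1.25 in prednisolone animals (SD, n = 8) and 8.68 ± 1.44 in control animals (SD, n = 7). The difference of -0.61 had a 95% confidence interval from -1.99 to 0.77 and did not pass the test (limma, adjusted p = 0.993; two-sided exact permutation p = 0.392). ISG15 lay below the control median in 6 of 8 prednisolone animals. The difference was -0.22 without C20, -0.35 without C18, -0.39 without P31, -0.94 without P27 and 0.0014 without C20 and P31 together. C20 and P31 also had the highest testis germ cell marker scores of their groups, P31 at 3.28 and C20 at 3.96. Without C17, C20 and P31 the ISG15 difference was -0.13, and with array weights it was -0.13.

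**Figure D1:**
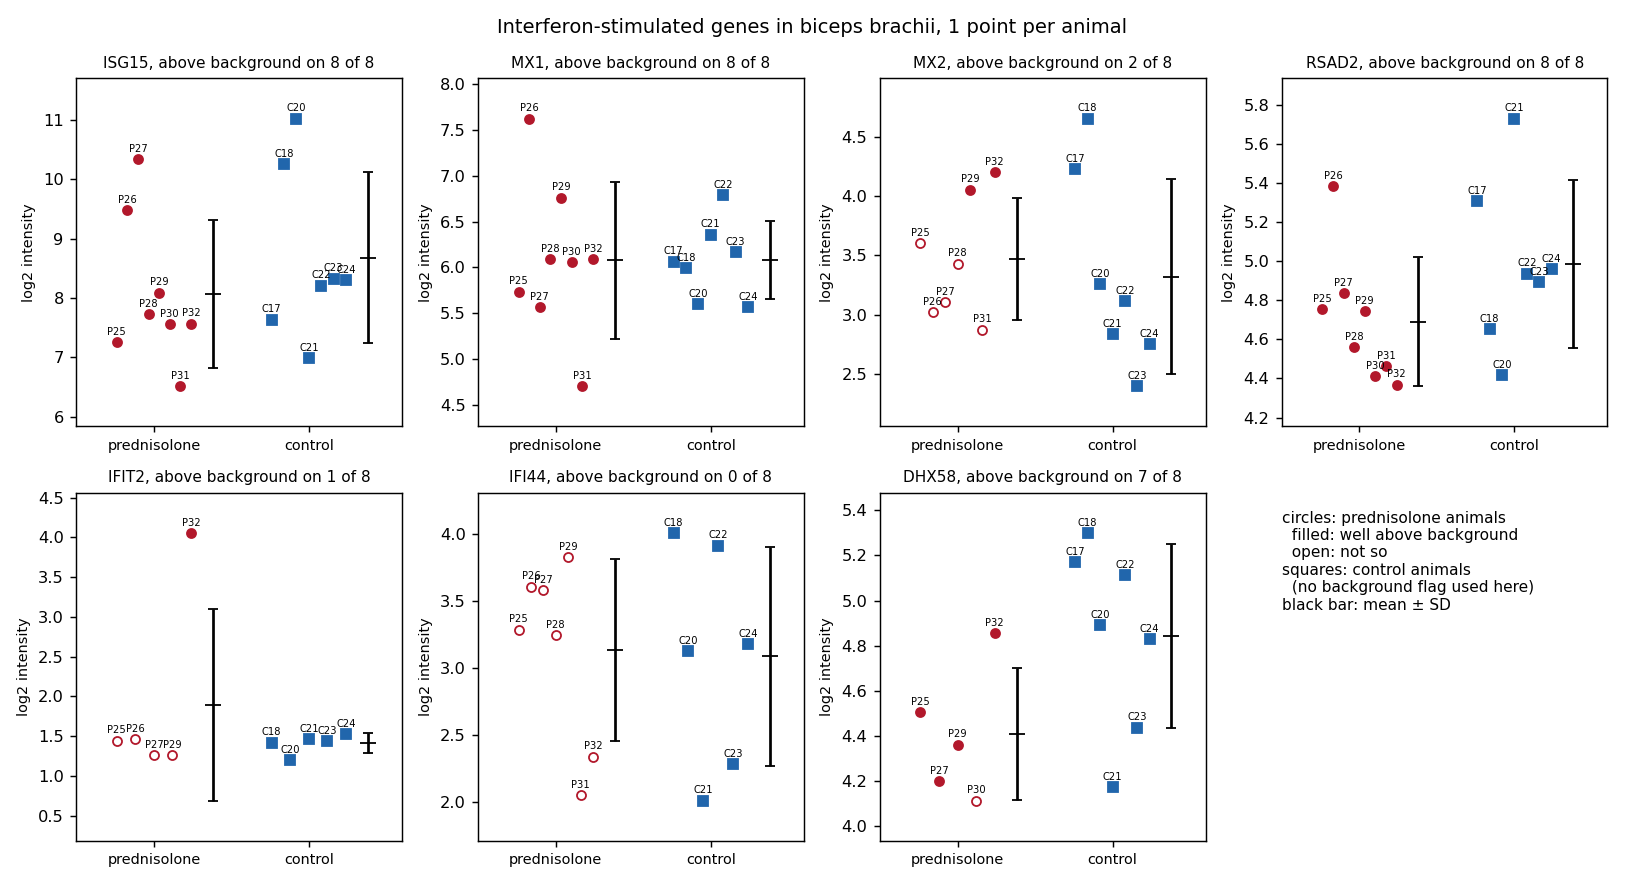
Log2 intensity (y axis) of the 7 interferon-stimulated genes with a probe, 1 point per animal, with prednisolone animals left of control animals in each panel and mean ± SD in black. ISG15 of P26, P27, C18 and C20 stands at 9.48 or above, and the groups overlap in all 7 panels.

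Of the pair of MX genes, MX1 was well above background on all 8 prednisolone arrays, and its group means were nearly equal. In the prednisolone animals P25 to P32, MX1 measured 5.73, 7.62, 5.56, 6.09, 6.76, 6.06, 4.71 and 6.09. In the control animals C17, C18, C20, C21, C22, C23 and C24, it measured 6.06, 5.99, 5.60, 6.36, 6.79, 6.16 and 5.57. The highest and the lowest animal, P26 and P31, were both treated with prednisolone, and the 7 control animals lay between them. MX1 averaged 6.08 ± 0.86 in prednisolone animals (SD, n = 8) and 6.08 ± 0.43 in control animals (SD, n = 7), a difference of 0.0025 with a 95% interval from -0.72 to 0.73 (exact permutation p = 0.995). The MX1 difference was -0.22 without P26 and 0.20 without P31, so its sign rests on single animals.

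MX2 had a value on 7 prednisolone and 7 control arrays. It measured 3.60, 3.02, 3.10, 3.43, 4.06, 2.87 and 4.20 in P25, P26, P27, P28, P29, P31 and P32, and only P29 and P32 were well above background. In the control animals C17, C18, C20, C21, C22, C23 and C24 it measured 4.23, 4.66, 3.26, 2.84, 3.12, 2.40 and 2.75. C17 and C18 were the 2 highest controls, and the control range enclosed that of the prednisolone animals. The MX2 difference was 0.15 with a 95% interval from -0.60 to 0.89, and it was -0.0054 without C23.

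RSAD2 was slightly lower on average in the prednisolone animals, within the spread between animals. In P25 to P32 it measured 4.76, 5.38, 4.84, 4.56, 4.75, 4.41, 4.46 and 4.37. In C17, C18, C20, C21, C22, C23 and C24 it measured 5.31, 4.65, 4.42, 5.73, 4.94, 4.89 and 4.96. P26 was the highest treated animal, C21 the highest control, and 7 of 8 prednisolone animals lay below the control median. The means were 4.69 ± 0.33 in prednisolone animals (SD, n = 8) and 4.98 ± 0.43 in control animals (SD, n = 7), a difference of -0.29 with a 95% interval from -0.71 to 0.12 (limma, adjusted p = 0.993; exact permutation p = 0.158).

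The 2 spots of the RSAD2 probe differed by an SD of 0.86 over 15 arrays, against an SD between animals within groups of 0.38. Spot 2 read higher than spot 1 on every array but P26. Their means were 4.99 and 4.39 in prednisolone animals and 5.42 and 4.55 in control animals. The SD of 0.86 includes this shared offset and the gap of C21, so it is not a measure of random error alone. The value of C21 for RSAD2 rests on the spots that disagree most, one at 3.79 and the other at 7.66. That gap of 3.87 was reached or passed by 4 of 9593 bright probes on the same array, where the median gap was 0.084, and the largest RSAD2 gap on the other 14 arrays was 1.74. Without C21 the RSAD2 difference was -0.17. With spot 1 alone it was -0.16 (exact permutation p = 0.589) and with spot 2 alone -0.43 (exact permutation p = 0.281). The size of the RSAD2 difference therefore depends on that control animal and on the spot used, while its sign was negative in each of these settings.

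DHX58 had the smallest p among the 7 genes and did not pass the test either. It measured 4.51, 4.20, 4.36, 4.11 and 4.85 in P25, P27, P29, P30 and P32, and had no deposited value in P26, P28 and P31. In C17, C18, C20, C21, C22, C23 and C24 it measured 5.17, 5.30, 4.89, 4.17, 5.11, 4.44 and 4.83. All 5 prednisolone animals with a value lay below the control median, and C21, C23 and C24 lay within their range. DHX58 averaged 4.41 ± 0.29 in prednisolone animals (SD, n = 5) and 4.84 ± 0.41 in control animals (SD, n = 7), a difference of -0.44 with a 95% interval from -0.90 to 0.03 (limma, p = 0.0638 and adjusted p = 0.993; exact permutation p = 0.0758).

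The missing DHX58 cells were not missing signals. On P26, P28 and P31 the scanner software had not found the spots, although it flagged their signals as well above background. With these arrays filled from the scanner signal, P26 came out at 5.39, above all 7 control animals. DHX58 then averaged 4.51 ± 0.43 in prednisolone animals (SD, n = 8), against the same 4.84 ± 0.41 in control animals (SD, n = 7), a difference of -0.33 (exact permutation p = 0.149). With the scanner signal of both spots on all 8 prednisolone arrays the difference was -0.42 (exact permutation p = 0.0917). With spot 2 alone, in 4 prednisolone and 7 control animals, the difference was -0.59 (exact permutation p = 0.0212), and with spot 1 alone, in 3 and 6 animals, it was -0.27 (exact permutation p = 0.405). These alternatives were chosen after seeing the data, and their p-values are not adjusted.

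**Figure D2:**
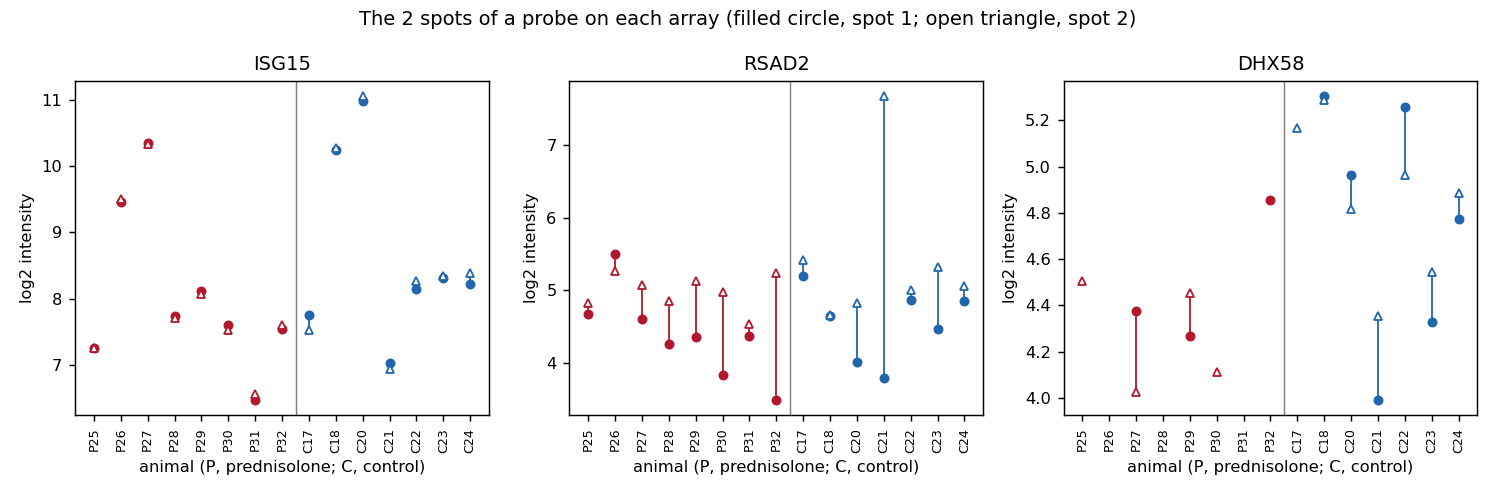
Log2 intensity (y axis) of both spots of the ISG15, RSAD2 and DHX58 probes on each array, prednisolone animals left of the vertical line and control animals right of it. The ISG15 spots nearly coincide on every array, while the RSAD2 spots of C21 stand 3.87 apart and DHX58 has no point for P26, P28 and P31.

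IFIT2 and IFI44 were at the lower end of what the arrays measure, so their differences, 0.49 for IFIT2 and 0.048 for IFI44, compare signals near background and are not read as changes in level. IFIT2 measured 1.45, 1.46, 1.27, 1.26 and 4.05 in P25, P26, P27, P29 and P32, against 1.42, 1.20, 1.47, 1.44 and 1.53 in C18, C20, C21, C23 and C24. Of the prednisolone animals P32 alone was well above background, and the other 9 animals of both groups with a value lay between 1.20 and 1.53. The P32 value rests on 1 spot with a scanner signal of 16.1, while the other spot had a signal of 2.72 and was not found by the scanner software. The log2 value from both spots is 2.78. IFI44 measured 3.28, 3.61, 3.58, 3.24, 3.83, 2.05 and 2.34 in P25 to P29, P31 and P32, against 4.0, 3.12, 2.01, 3.91, 2.28 and 3.18 in C18, C20, C21, C22, C23 and C24. The IFI44 ranges of both groups nearly coincided, and none of the prednisolone values was well above background.

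No member passed an adjusted p of 0.05 in limma, in a test that called 0 of all 15362 genes (0%). An unadjusted p under 0.05 was reached by 0 of the 7 members, against 494 of all genes (3.22%), of which 246 (1.6%) were lower and 248 (1.61%) higher in prednisolone animals. The groups overlapped for all 7 members, and did not overlap for 34 of all genes (0.221%). A negative difference was found for 3 of 7 members and for 47.9% of all genes. The median difference of the 7 members was 0.0025, beside 0.010 over all genes. The exact permutation test and the exact Wilcoxon rank sum test also gave no member a p under 0.05. The 95% interval of a difference extended over a median of 0.46 to either side among all genes. The intervals of all members but RSAD2 were wider than that, the one of DHX58 only slightly.

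**Figure D3:**
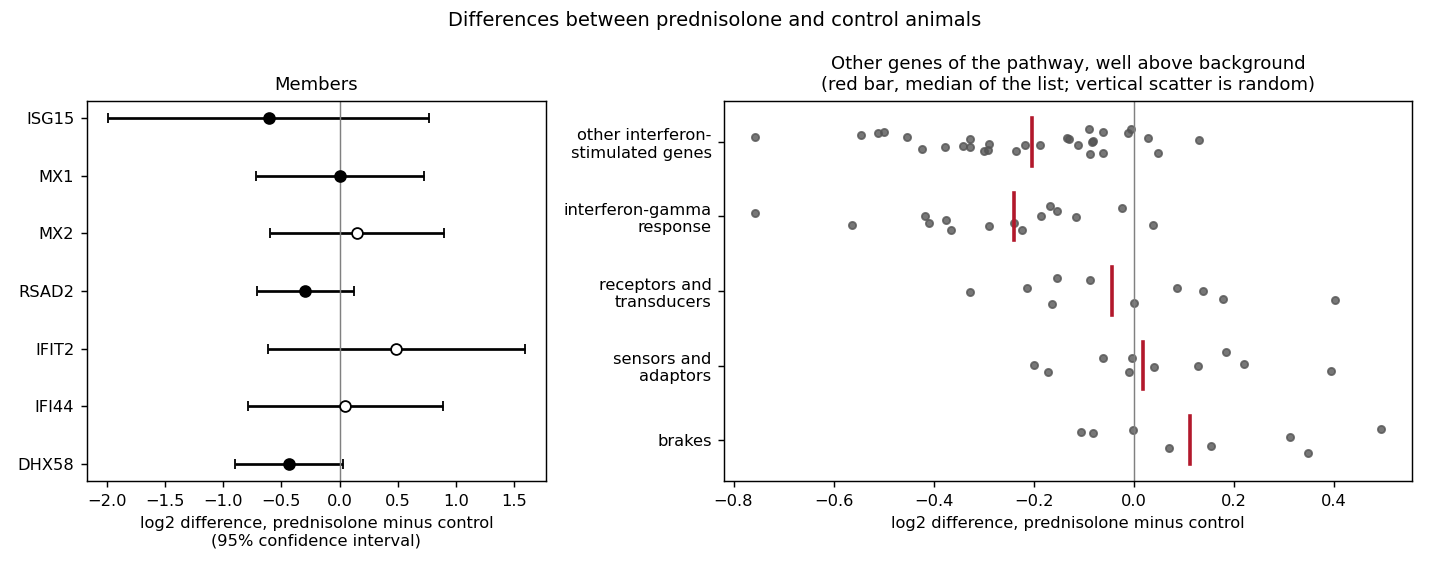
Log2 difference, prednisolone minus control, for the 7 members with 95% confidence intervals (left; open circles mark genes above background on 2 or fewer of the 8 prednisolone arrays) and for other pathway genes that were well above background (right; 1 point per gene, red bar at the median of the list). All 7 member intervals include 0, and the medians of the 2 upper lists, -0.20 and -0.24, lie left of 0.

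No pair of members had a correlation that passed the test. Correlations were taken across animals after subtracting each group's mean, for all 21 pairs of members. ISG15 and MX1 had a Pearson r of 0.13 and a Spearman rho of -0.011 over 15 animals, with r = 0.46 within prednisolone and r = -0.51 within control animals, and r was 0.53 without C20 and P27. ISG15 and RSAD2 had r = -0.22, with r = 0.68 within prednisolone and r = -0.91 within control animals. Without C20 and P27 this r was -0.063. C21 was the lowest control for ISG15 and the highest for RSAD2, where its 2 spots stood at 3.79 and 7.66. Among the remaining controls, C17 had the lowest ISG15 and the highest RSAD2, at 7.64 and 5.31. C20 had the highest ISG15 and the lowest RSAD2, at 11.02 and 4.42. The r within control animals was not taken without C21. MX1 and RSAD2 had r = 0.53 and rho = 0.34 (permutation p = 0.0349 and 0.222), and r was 0.25 without P26 and P31. None of the 21 pairs passed after Benjamini-Hochberg adjustment, with a smallest adjusted permutation p of 0.311 for r and 0.157 for rho. The value of 0.157 was that of MX2 and DHX58, with r = 0.77 and rho = 0.81 (permutation p = 0.0166 and 0.00746, n = 11). Without C17 and C18 this r was 0.63, and MX2 was well above background on 2 of 8 prednisolone arrays. The median r among the pairs of ISG15, MX1 and RSAD2, the 3 members with a value on every array, was 0.13.

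ISG15 did vary with other genes of the interferon response. The 3 members with a value on every array were set against 66 pathway genes and 7 cell marker scores, which made 219 relations. After adjustment over these relations, 5 passed for Pearson's r, all of them with ISG15. They were UBA7, PARP9, HERC6, GBP4 and CD74. With MX1 or RSAD2 0 passed. For RSAD2 the SD between spots was 0.86 and that between animals 0.38, but the first includes an offset between the spots and the gap of C21.

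UBA7, the enzyme that activates ISG15 for conjugation, had the highest Pearson r with it of the 66 pathway genes, and PARP9 the highest Spearman rho. UBA7 measured 8.16, 9.22, 9.45, 8.77, 8.23, 7.96, 7.49 and 7.54 in P25 to P32. In C17, C18, C20, C21, C22, C23 and C24 it measured 8.09, 9.76, 9.97, 8.18, 8.52, 8.46 and 8.69. The same 4 animals that were highest for ISG15, namely P26, P27, C18 and C20, were the 4 highest for UBA7. The correlation was r = 0.93 and rho = 0.89 (adjusted permutation p = 0.00219 and 0.00657, n = 15), with r = 0.89 within prednisolone and r = 0.98 within control animals. It was 0.88 without C20 and P27, the 2 animals farthest from the ISG15 median. Since the 4 high animals stand apart, r was also taken over the other 11 animals, a choice made after seeing the values, and was 0.62.

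PARP9, an ADP-ribosyltransferase family member that works with a ubiquitin ligase in interferon signalling, followed ISG15 with r = 0.87 and rho = 0.91 (adjusted permutation p = 0.00219 and 0.00438, n = 15). The permutation p of 1e-05 behind its r is the smallest that 100000 permutations can give. Within prednisolone animals r was 0.91 and within control animals 0.89, and over the 11 animals with lower ISG15 it was 0.81. PARP9 spanned a much smaller range than ISG15, with a lowest, median and highest value of 6.35, 6.74 and 7.23 in prednisolone animals and 6.66, 6.99 and 7.25 in control animals.

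HERC6, a ubiquitin ligase family member that conjugates ISG15 in mouse, had r = 0.82 and rho = 0.73 with ISG15 (adjusted permutation p = 0.0346 and 0.251, n = 15). Over the 11 animals with lower ISG15 its r was 0.63. Its brighter probe, used here, is described on the array by similarity to human HERC5, so the pair of HERC genes may not be told apart by that probe. GBP4, a guanylate-binding GTPase induced by interferons, had r = 0.83 but rho = 0.54 (adjusted permutation p = 0.0346 and 0.498), and r = -0.029 over the 11 animals with lower ISG15, so its relation rests on the 4 high animals. CD74, the invariant chain of MHC class II, had r = 0.81 and rho = 0.79 (adjusted permutation p = 0.0346 and 0.116), with r = 0.67 without C20 and P27. For CD74, r was not taken over the 11 animals, so how far it rests on the 4 high animals is not shown. Only UBA7 and PARP9 passed for both r and rho.

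**Figure D4:**
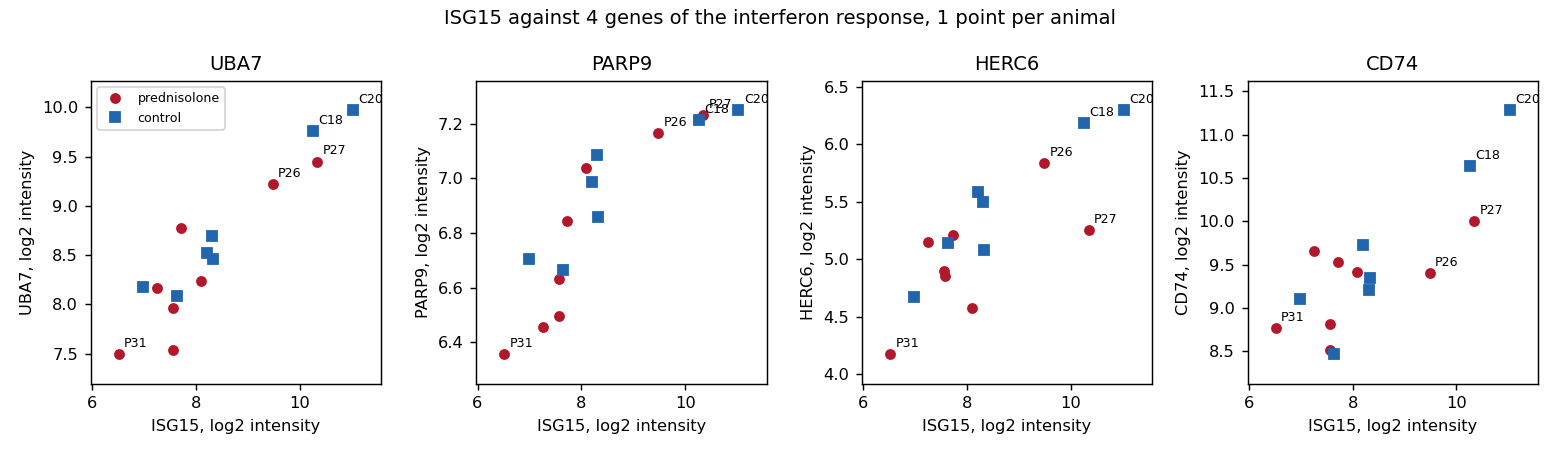
Log2 intensity of UBA7, PARP9, HERC6 and CD74 (y axes) against that of ISG15 (x axes), 1 point per animal, circles for prednisolone and squares for control animals. P26, P27, C18 and C20 lie at the right in each panel, and P31 has the lowest ISG15, UBA7, PARP9 and HERC6.

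Across all 30 other interferon-stimulated genes that were well above background, the median r with ISG15 was 0.33, beside -0.031 over 10024 genes. An r above 0.5 with ISG15 was found for 9 of these 30 genes (30%) and for 1.13% of all 10024, and 8 of the 30 were among the 100 genes with the highest r. The same share was 16.7% for MX1 (5.95% of all genes) and 6.67% for RSAD2 (4.95% of all genes). The values ranged widely within the list, since RIGI had r = 0.46 with ISG15 and IFI44L had r = 0.15. USP18, the protease that removes ISG15 from proteins, had r = -0.46. These shares describe the same 15 arrays and carry no test.

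**Figure D5:**
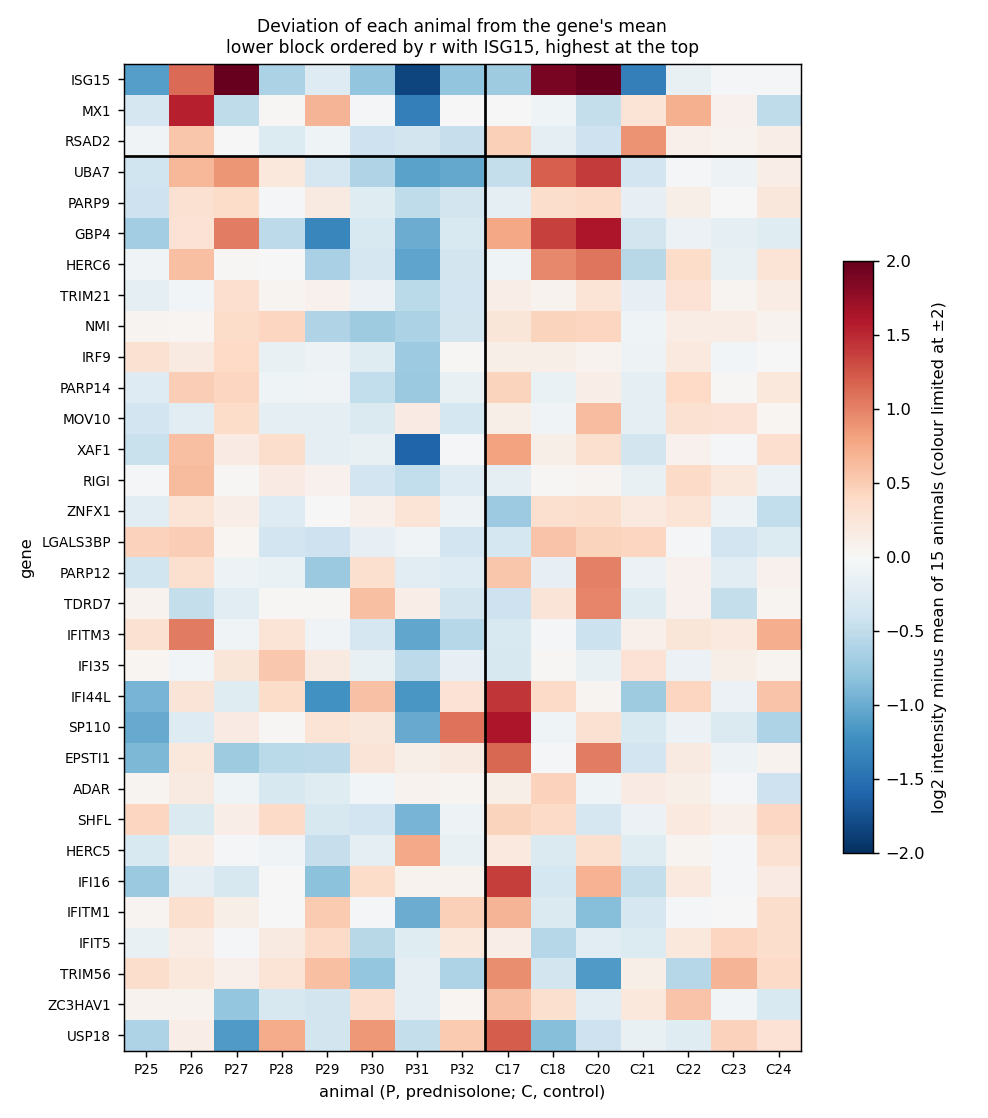
Log2 intensity of each animal minus the gene's mean over 15 animals (colour) for ISG15, MX1 and RSAD2 (top) and other interferon-stimulated genes from the list of 30 (bottom, ordered by r with ISG15, 1 gene not shown), with prednisolone animals left of the vertical line and control animals right of it. The red cells of ISG15 in P26, P27, C18 and C20 recur in UBA7 and PARP9 and fade down the list, and C17 is high in a different set that includes IFI44L, SP110 and USP18.

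The 10 genes outside the members most like the mean of ISG15, MX1 and RSAD2 across the 15 animals were PARP9, MEF2C, RTP4, UBA7, RIGI, PREP, UBTD1, H19, PCSK7 and HERC6, with r from 0.86 to 0.74. They were selected for these values, which therefore carry no test. The mean is not scaled by gene. With SDs between animals of 1.34 for ISG15, 0.69 for MX1 and 0.38 for RSAD2, ISG15 weighs most and RSAD2 least. PARP9, UBA7, RIGI and HERC6 belong to the list of interferon-stimulated genes, and RTP4, a receptor transport protein, is known to be induced by interferon as well. For UBTD1, r was 0.92 within prednisolone and -0.25 within control animals, and without P26 and P31 it was 0.22. Without these animals r was 0.88 for PARP9, 0.83 for PREP and 0.82 for UBA7, against 0.65 for MEF2C, 0.54 for RTP4, 0.54 for HERC6, 0.46 for H19, 0.41 for RIGI and 0.39 for PCSK7.

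For ISG15 alone, a list added after seeing the data, the 10 most similar genes were UBA7, HK3, PARP9, BOLA-DMB, GBP4, HERC6, BOLA-DRA, CD74, BOLA-DMA and PREP, with r from 0.93 to 0.79. BOLA-DMB, BOLA-DRA, BOLA-DMA and CD74 are genes of MHC class II antigen presentation, which interferon gamma is known to induce. HK3, a hexokinase best known from white blood cells, had r = 0.89 and rho = 0.93. The mean score of the leukocyte markers, 17 of 24 of which had a value on every array, ran from -0.63 to 0.55 in prednisolone animals and from -0.63 to 1.25 in control animals. That score had r = 0.15 and rho = 0.071 with ISG15 (adjusted permutation p = 0.888 and 0.960, n = 15). It is not scaled by gene, so CD3E, from 5.26 to 11.34, weighs more than FCER1G, from 3.58 to 5.14. CD3E is also a thymocyte marker, and C17 and P30 were the highest of their groups in both scores. Relations of ISG15 with single leukocyte markers were not tested. None of the 7 marker scores passed with ISG15, MX1 or RSAD2.

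The wider pathway was described from lists of other interferon genes. Of 44 tested interferon-stimulated genes outside the members, 33 had a negative and 11 a positive difference, 0 passed the test and 0 had an unadjusted p under 0.05. Among the 30 of them well above background on all 8 prednisolone arrays, 27 were negative, with a median difference of -0.20, beside 0.017 and 45.7% negative over all genes kept in the same way. The flag was available for prednisolone arrays only, so this selection does not treat both groups alike. The count was 21 of 30 with quantile normalization (median -0.11) and 21 of 30 without P31 (median -0.14). Without C20 and P31 it was 23 of 30, with a median of -0.13.

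NMI, a STAT-binding protein, averaged 9.28 ± 0.46 in prednisolone animals (SD, n = 8) and 9.66 ± 0.19 in control animals (SD, n = 7), a difference of -0.38 with a 95% interval from -0.78 to 0.02. MOV10, an antiviral RNA helicase, differed by -0.29, with a 95% interval from -0.60 to 0.02. Both lay below the control median in 6 of 8 prednisolone animals, and neither passed the test. These 2 genes had the smallest p of their list.

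Of 19 tested genes of the interferon gamma response, 17 had a negative difference, beside 47.9% of all genes, and 0 passed the test. Of the 15 well above background 14 were negative, with a median of -0.24, beside 45.7% and 0.017 over all genes kept in the same way. PSMB8, an immunoproteasome subunit, averaged 9.24 ± 0.48 in prednisolone animals (SD, n = 8) and 9.81 ± 0.57 in control animals (SD, n = 7), a difference of -0.56 with a 95% interval from -1.12 to -0.01. It was the one gene of the list with an unadjusted p under 0.05 (limma, adjusted p = 0.993). GBP4 differed by -0.76, with a 95% interval from -1.57 to 0.06. The median of the list was -0.17 without C20, with 10 of 15 negative, -0.38 without P27, with 15 of 15 negative, and -0.12 without C20 and P31.

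A majority of negative differences was not particular to these 2 lists. Among markers well above background, 10 of 12 skeletal muscle, 7 of 10 endothelial, 10 of 16 leukocyte, 3 of 3 testis and 2 of 3 thymocyte markers were negative. For hepatocyte markers it was 1 of 6 and for adipocyte markers 1 of 5. The parts of the pathway upstream of the interferon response genes showed no such majority. Of 10 receptors and signal transducers well above background, 5 were negative and 5 positive, with a median of -0.044. STAT2 was well above background on 1 of 8 arrays and had values in 4 prednisolone and 5 control animals, so no fold is given. Among the 10 sensors and adaptors above background, 5 were negative, and TLR3, an endosomal sensor of double-stranded RNA, differed by 0.39 with a 95% interval from -0.09 to 0.88. IFIH1, the sensor MDA5, was well above background on 1 of 8 arrays.

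Among the 8 brakes on interferon signalling other than ISG15, 3 were negative and 5 positive, with a median of 0.11. SOCS3, which blocks JAK kinases, differed by 0.49 with a 95% interval from -0.21 to 1.20. SOCS1, a JAK inhibitor of the same family, averaged 8.17 ± 0.42 in prednisolone animals (SD, n = 8) and 7.86 ± 0.75 in control animals (SD, n = 7), and lay above the control median in 7 of 8 prednisolone animals. None of these genes passed the test. None of the 5 interferon genes with a probe was well above background on all 8 arrays, with IFNG flagged on 1 array and IFNT2 on 0.

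Markers of other cell types varied between animals, no marker gene or marker score passed the test between groups, and their part in the results above was not tested. The testis germ cell score used 8 probes with a value on every array for its list of 14 marker genes. It ran from -3.13 to 3.28 in prednisolone animals and from -1.01 to 3.96 in control animals (exact permutation p = 0.0702). Its gene TNP1, a sperm chromatin protein well above background on 5 of 8 arrays, had a difference of -4.56 with a 95% interval from -8.37 to -0.75. With this score as a covariate the ISG15 difference was -0.81, that of MX1 -0.26 and that of RSAD2 -0.48. The thymocyte score, from 4 of 8 markers, ran from -2.54 to 3.44 in prednisolone animals and from -2.21 to 4.61 in control animals, with C17 highest. Of 6 tested thymocyte markers 4 were negative, with a median difference of -0.21, while LCK, a T cell kinase with the smallest p of that list and well above background on 7 of 8 arrays, differed by 0.56.

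The leukocyte marker with the smallest p was CD163, a macrophage receptor, at 8.99 ± 0.46 in prednisolone animals (SD, n = 8) and 9.53 ± 0.68 in control animals (SD, n = 7), below the control median in 8 of 8 prednisolone animals. With the leukocyte score as a covariate the ISG15 difference was -0.55 and 25 of the 30 other interferon-stimulated genes had a negative difference. Among the other marker lists, the hepatocyte gene HP differed by 1.22, the endothelial gene TEK by -0.39, the adipocyte gene CIDEA by 1.03 and the muscle gene MB by -0.13. None of them passed the test over all genes (limma, adjusted p = 0.993).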

How the data were processed

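The deposited value table gives 1 linear intensity per spot for each of 15 arrays. Per the file headers, the scanner output of the prednisolone arrays was made with Feature Extraction 9.5.1.1 and gives processed intensity and detection flags. R 2.11.1 is named in the submitters' processing notes, and no label names the normalization. On the prednisolone arrays, empty cells of the deposited table were spots that the scanner software did not find. For control arrays no scanner files were used here, so their slides and scans are unknown. The treated animals P25 and P26 shared a slide, as did P27 with P28 and P29 with P30.

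Intensities were taken as log2, shifted to a common 75th percentile over 14324 probes with a value on all arrays, and averaged over the spots of a probe. Probes with at least 3 values per group (20894) were compared with limma 3.58.1 (lmFit, eBayes) under R 4.3.3, and p-values were adjusted over all of them by Benjamini-Hochberg. The limma fit was also run on simulated data with independent noise for each probe and no missing values. That run does not cover variation shared between genes, missing values or the difference in extraction method. The brightest probe stood for a gene. Names came from the annotation columns and the reference gene table for 17341 probes, while 4134 stayed unnamed. Genome positions are not given. Permutation tests were coded in Python 3.11.15. Ranks, the Wilcoxon test and the adjustment of correlation p-values came from scipy 1.17.1. Marker scores are mean deviations of the marker probes with a value on every array. Named genes were the members, the 2 of each pathway list and the 1 of each marker list with the smallest p, and the 10 most like the members; 1 pathway gene that this rule names is not reported here. The members and lists were chosen with earlier results of these data known. Alternatives were other scalings and filters, array weights, marker scores as covariates and exclusions of animals. The number of arrays limits the precision.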

Additional observations from a re-analysis of the deposited data

Results flagged for a closer look

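In 14 groups of values examined, 2 held an animal far from the others of its group by Dixon's criterion, which chance alone meets in about 1 of 20 groups. IFIT2 in P32 was at 4.05, while the nearest prednisolone animal was at 1.46. It was the only IFIT2 value of the prednisolone animals well above background, and no such flag was available for controls. It rests on 1 spot, with a scanner signal of 16.1, while the other spot, which the scanner software did not find, had a signal of 2.72. The log2 value from both spots is 2.78. RSAD2 in P26 was at 5.38, while the nearest prednisolone animal was at 4.84. P26 also had the highest MX1 value of all 15 animals.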

How the results depend on the processing

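The calls of members stayed at 0 in every setting run. Adjusted p was at least 0.919 for ISG15, 0.817 for RSAD2 and 0.719 for DHX58. Unadjusted p fell below 0.05 for DHX58 without C21, C23 or P32 and for RSAD2 without P26 and with the testis score, with adjusted p of at least 0.957. The ISG15 difference turned to 0.0014 without C20 and P31, an exclusion known from earlier results. The MX1 difference, 0.0025, turned to -0.0064 with values as deposited, -0.085 with array weights, -0.011 with the leukocyte score, -0.26 with the testis score and -0.033 with spot 1 alone. With the testis score MX2 turned to -0.15 and IFI44 to -0.38. The count of genes called was 1 without C20 and P31 and 1 without C17, C20 and P31, in both cases PZP, named after its values were seen. Leaving out 1 animal at a time gave -0.94 to -0.22 for ISG15, -0.22 to 0.20 for MX1, -0.0054 to 0.37 for MX2, -0.053 to 0.65 for IFIT2, -0.17 to 0.23 for IFI44, -0.39 to -0.17 for RSAD2, -0.55 to -0.36 for DHX58 and 0 to 1 for genes called, with 1 without C23 (ZNF696) and 1 without P31 (PZP). The cause of these changes was not tested. The median r among ISG15, MX1 and RSAD2 ran from -0.11 to 0.29 in the same way, and that of ISG15 with the other interferon-stimulated genes from 0.28 to 0.39. That second value was 0.46 with quantile normalization and 0.23 without C18, C20, P26 and P27. No paired analysis was possible because the groups share no animal numbers. Signal over background limits MX2, IFIT2 and IFI44, and the gap between spots, widest in C21, limits RSAD2.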
